A study of Mus musculus with 6 samples.

Results

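The STAT and SOCS signalling genes described here were Stat2, Stat3, Stat5a, Stat6, Jak2, Socs1, Socs2, Socs3 and Cish, 9 of the 20275 coding genes in the deposited expression table. They were chosen by symbol. Where a gene had several RefSeq transcripts, the one with the highest mean over all columns was used, which picked 9 of 16 table entries. Expression was measured by paired-end directional RNA-seq of polyA RNA from wildtype (WT) MEFs, fibroblasts grown from mouse embryos, here from littermates at day 13.5 with the strain given as C57BL/6x 129 and used at passage 4. There were 4 RNA-seq libraries, 1 from untreated MEFs and 1 for each time after TNFα was added at 20 ng/ml (1.5, 6 and 24 hr). This cytokine switches on NF-κB. H3K4me3, a histone mark of active promoters, was mapped in untreated MEFs by ChIP-seq, with 1 library and 1 input library.

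Cytokines such as interferons, interleukins and growth hormone bind receptors that carry JAK kinases on their inner side. The activated JAK phosphorylates the receptor and then STAT proteins, which pair, enter the nucleus and bind DNA, many of them at palindromes of the letters TTCNNNGAA. Among the genes that STATs turn on are the SOCS genes and Cish, whose proteins block the kinase or the receptor, so the pathway carries its own brake. In fibroblasts the pathway answers interferons and cytokines of the IL-6 family, and TNFα itself signals through other receptors.

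RefSeq promoter sequences (GRCm38.p6, 250 bases before to 50 after the start) were found for 8 of the 9 genes, and 4 of these held letters of a STAT or interferon element. They are shown because they are the only promoters of the 8 with such letters, read 5′ to 3′ on the strand of the gene, with the matching letters in capitals. The windows lie at chr11:117969472-117969560 (Socs3, minus strand), chr9:107296619-107296682 (Cish, plus strand), chr10:128270248-128270337 (Stat2, plus strand) and chr16:10785564-10785659 (Socs1, minus strand).
Socs3: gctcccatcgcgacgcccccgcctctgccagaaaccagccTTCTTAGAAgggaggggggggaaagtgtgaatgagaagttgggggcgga
Cish: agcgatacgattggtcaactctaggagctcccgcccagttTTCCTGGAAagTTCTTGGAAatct
Stat2: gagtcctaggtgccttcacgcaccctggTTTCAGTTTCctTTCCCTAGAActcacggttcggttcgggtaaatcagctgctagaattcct
Socs1: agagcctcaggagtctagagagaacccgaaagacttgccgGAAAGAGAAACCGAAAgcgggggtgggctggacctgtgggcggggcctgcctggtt

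The STAT letters TTCNNNGAA, which read the same on both strands, were found in 2 of the genes and in 7.76% of the 17439 promoters of coding genes. Socs3 held them once, from 154 to 146 bases before the start. Cish held them at 2 places just inside the RefSeq transcript, from base 0 to 8 and from base 11 to 19 when the first transcribed base is counted as 0. The stricter letters TTCCNGGAA, a subset of the former, were found in 1.21% of all promoters and among the 8 genes searched in Cish, at its first place. Letters of the interferon-stimulated response element (GAAA, any 2 bases, GAAA, on either strand) were found in 3.30% of all promoters. In Socs1 they were found at 2 overlapping places, from 83 to 74 and from 77 to 68 bases before the start, and in Stat2 on the opposite strand from 222 to 213 bases before it. The wider spacing that STAT6 is known to bind, TTC and GAA with 4 bases between them, was found in 6.28% of promoters and in Stat2 from 210 to 201 bases before the start. The NF-κB letters (GGG, any 3 bases, TTCC), searched on both strands, were in 5.63% of promoters and in 0 of the 8 genes. These matches are letters in a short window and were not measured as binding. All positions run from the RefSeq start. In mm9 the GENCODE gene of Cish begins further upstream, at chr9:107198357 against a RefSeq start at chr9:107198990. That of Socs3 does too, at chr11:117831361 against chr11:117830680.

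Expression values are given in deposited units, which are RPKM-type values (reads per length of transcript and per library) on a scale of their own. Their scaling by length allows a comparison between genes, with the limit that ratios between libraries followed GC content, as described below. Each library value is the mean of its 2 deposited columns, R1 and R2. These columns are not replicates: of genes with 1 read in R1, between 52.6% and 64.1% had 1 read in R2 of the same library, against 9.13% to 23.1% in R1 of another library. With 1 library per time no test across replicates was possible, and no p is given. The estimated reads on coding genes in the R1 column numbered 13826124 in the untreated library, 17440420 after 1.5 hr, 7242723 after 6 hr and 15405435 after 24 hr. The 95% intervals below come from the estimated reads of a gene and cover counting error only.

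The libraries differed as a whole. Across the 6050 coding genes with a mean above 100 deposited units, the log2 ratio of treated to untreated had a median of 0.44 after 1.5 hr, -0.74 after 6 hr and 0.10 after 24 hr. The relative log2 ratio used here is the log2 ratio of a gene minus this median. By that measure 957 of these genes passed 2-fold upward and 1052 downward after 1.5 hr, while 1800 were higher and 482 lower with the values as deposited. At 6 hr 436 genes were higher and 197 lower by the relative ratio, against 111 and 1903 as deposited. At 24 hr the relative ratio gave 869 higher and 921 lower, and the deposited values 1017 and 776. With libraries scaled by their summed values there were 1311 higher and 783 lower after 1.5 hr, 515 and 134 after 6 hr, and 1096 and 726 after 24 hr.

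The ratios also followed the GC content of the transcripts. In 20 bins of GC content, the median relative log2 ratio after 1.5 hr went from 0.98 in the bin of lowest GC to -1.21 in the bin of highest GC, and after 24 hr from 0.91 to -1.08. At 6 hr it went from 0.66 to -0.15. Among the 9 genes, transcript GC content ran from 44.3% in Jak2 and 45.4% in Socs2 to 58.7% in Socs3 and 63.6% in Socs1. The text therefore also gives GC-matched ratios, which subtract the median of the gene's own GC bin. The part that GC content had in a result was not tested.

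**Figure D1:**
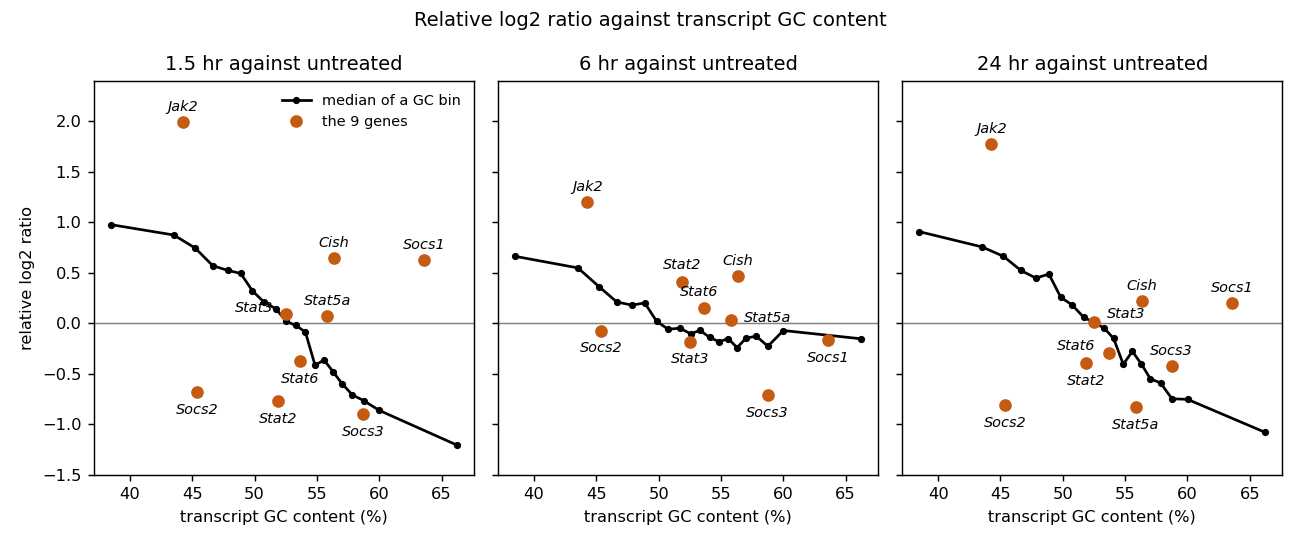
Relative log2 ratio (y axis) against transcript GC content in percent (x axis) at 1.5, 6 and 24 hr against untreated. The black line joins the medians of 20 bins of coding genes and each orange point is 1 of the 9 genes. At 1.5 and 24 hr the line falls from above 0 to below -1, and Jak2, Cish and Socs1 lie above it while Socs2 lies below it.

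In untreated MEFs 3 of the 4 STAT genes were the most abundant of the group. Stat3 had 626 deposited units, Stat6 435 and Stat2 317, followed by Socs2 at 177, Stat5a at 133 and Socs3 at 123. Cish at 51.0 and Socs1 at 50.3 stood close together, and their R1 and R2 values overlapped (48.8 to 53.1 and 46.1 to 54.5). Jak2 was the least abundant at 26.9. The ranges of R1 and R2 also overlapped for Stat5a (122 to 144) and Socs3 (120 to 125). Stat3, Stat6 and Stat2 kept the first 3 places in this order in all 4 libraries, whereas Jak2 was the lowest of the 9 only in the untreated library, and was in place 6 after 1.5 hr, 8 after 6 hr and 5 after 24 hr. These places are by deposited level and are not GC-matched.

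**Figure D2:**
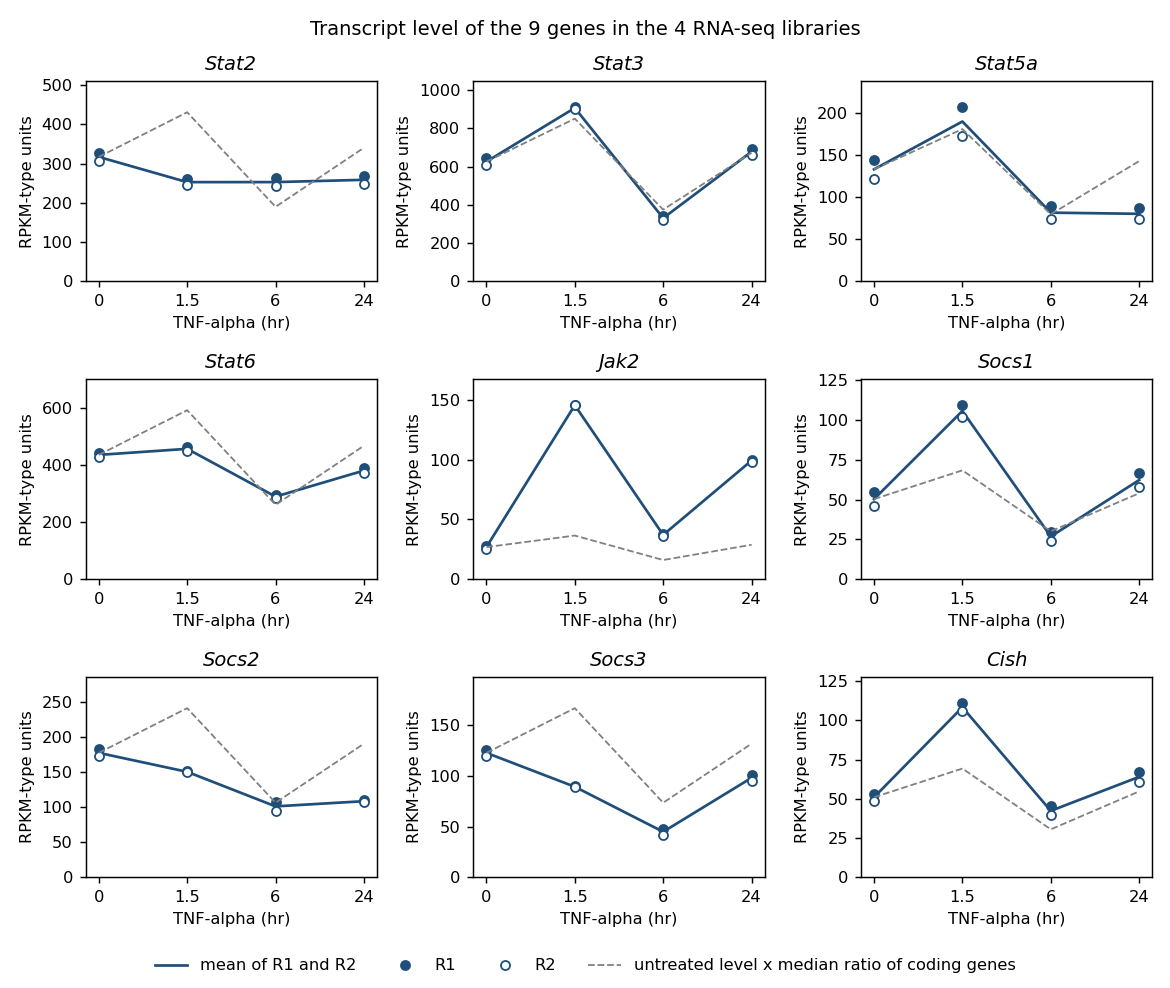
Transcript level in deposited RPKM-type units (y axis, from 0) of the 9 genes in the untreated library and at 1.5, 6 and 24 hr of TNFα (x axis, evenly spaced). Filled and open points are the R1 and R2 columns of 1 library, the line joins their mean, and the dashed line is the untreated level multiplied by the median ratio of coding genes. Jak2 lies above its dashed line at all 3 times, and Socs2 and Socs3 lie below theirs at all 3.

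Jak2 had the largest ratio of the 9 genes at every time relative to all coding genes. Against genes of like GC content, however, Socs1 was above it after 1.5 hr. Socs1 was also above it after 24 hr, but there the counting intervals of the 2 genes overlapped. Cish was about level with Jak2 after 1.5 and 6 hr, with overlapping intervals. Jak2 encodes a kinase used by the receptors for interferon-γ, growth hormone and several interleukins. Its level was 26.9 deposited units in untreated MEFs, 146 after 1.5 hr, 37.1 after 6 hr and 99.3 after 24 hr, on 142, 798, 172 and 617 estimated reads. The values at 1.5 and 24 hr stood well above the untreated one, and R1 and R2 (28.1 and 25.7 untreated, 145 and 146 after 1.5 hr) lay close together at each time. Relative to all coding genes, Jak2 was 3.98-fold higher after 1.5 hr (log2 1.99, 95% counting interval 1.74 to 2.25), 2.30-fold after 6 hr (1.20, 0.88 to 1.52) and 3.44-fold after 24 hr (1.78, 1.52 to 2.04). Against genes of like GC content it was 2.17-fold higher after 1.5 hr (log2 1.12, 0.86 to 1.37), 1.57-fold after 6 hr (0.65, 0.33 to 0.98) and 2.03-fold after 24 hr (1.02, 0.76 to 1.29). The direction held in all 6 scalings that were compared, and the log2 ratio as deposited was 2.44, 0.46 and 1.88. The other Jak2 transcript of the table gave 1.19 after 6 hr and 1.78 after 24 hr relative to all coding genes.

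Stat3 stayed near the median gene at all 3 times. STAT3 carries the signals of the IL-6 family. Its level was 626 deposited units in untreated MEFs, 907 after 1.5 hr, 331 after 6 hr and 678 after 24 hr, and the low value after 6 hr went along with the library as a whole. The relative log2 ratio was 0.09 (95% counting interval 0.03 to 0.15) after 1.5 hr, -0.18 (-0.26 to -0.10) after 6 hr and 0.01 (-0.05 to 0.07) after 24 hr. The GC-matched ratios of Stat3 were 0.07, -0.08 and 0.01.

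Stat2, which acts in the response to type I interferon, had 317 deposited units in untreated MEFs and 253, 253 and 259 at 1.5, 6 and 24 hr. The untreated value was the highest, and the 3 later ones were alike. Relative to all coding genes it was lower after 1.5 hr (log2 -0.77, interval -0.88 to -0.66) and after 24 hr (-0.40), and so it was in all 6 scalings. At 6 hr the relative ratio was 0.41, but it was -0.33 with the values as deposited, so the side of 0 on which it lies depends on the scaling. The GC-matched ratios were -0.92, 0.46 and -0.45.

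Stat6, which acts downstream of IL-4 and IL-13, had 435 deposited units in untreated MEFs, 456 after 1.5 hr, 289 after 6 hr and 380 after 24 hr. Its relative log2 ratio was -0.37 after 1.5 hr, 0.15 after 6 hr and -0.30 after 24 hr. The value after 24 hr was below 0 in all 6 scalings, whereas as deposited the ratio was 0.07 after 1.5 hr and -0.59 after 6 hr. The GC-matched ratios of Stat6 were -0.35, 0.22 and -0.25. Stat5a, which acts downstream of prolactin and growth hormone, had 133 deposited units in untreated MEFs, 190 after 1.5 hr, 81.5 after 6 hr and 80.2 after 24 hr. At 24 hr it was 1.78-fold lower relative to all coding genes (log2 -0.83, interval -1.02 to -0.64) and 1.47-fold lower against genes of like GC content. The relative ratio of Stat5a was 0.07 after 1.5 hr and 0.03 after 6 hr, with intervals that included 0. Against genes of like GC content it was 0.43 after 1.5 hr (0.28 to 0.59) and 0.18 after 6 hr (-0.02 to 0.39).

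Stat5b, Stat5a and Stat3 are neighbours in mm9, at chr11:100642045-100712038, chr11:100720665-100746483 and chr11:100746412-100800854. The last exons of Stat5a and Stat3 lie on opposite strands and overlap by 72 bases. The 3 genes of this cluster differed in their relative log2 ratio after 24 hr, which was -0.46 in Stat5b, -0.83 in Stat5a and 0.01 in Stat3. Whether the in-house counting of the reads used their strand was not given in the sources used here. Stat6 likewise shares 40 exon bases with Nab2, and Cish overlaps the noncoding Gm17040 and Gm17041 by up to 321 bases on the opposite strand.

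The 4 genes of inhibitors did not move as 1 group. Socs1 and Cish were higher and Socs2 lower at 1.5 and 24 hr, while Socs3 was lower at 1.5 and 6 hr. These directions held in all 6 scalings, but their size changed with the GC content of the comparison genes. Relative to all coding genes, the intervals of Socs1 and Cish after 24 hr included 0. Against genes of like GC content, that of Socs3 after 1.5 hr included 0 (log2 -0.14, -0.37 to 0.10).

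Socs1, which binds JAK kinases and blocks interferon signalling, had 50.3 deposited units in untreated MEFs, 106 after 1.5 hr, 26.9 after 6 hr and 62.3 after 24 hr. The library after 1.5 hr was the highest and that after 6 hr the lowest. The counts were the smallest of the group, at 64.5, 141, 30.1 and 93.9 estimated reads. Relative to all coding genes Socs1 was 1.54-fold higher after 1.5 hr (log2 0.63, interval 0.20 to 1.05), and the values of -0.17 after 6 hr and 0.21 after 24 hr had intervals that included 0. With the highest GC content of the group, it was 3.56-fold higher after 1.5 hr (log2 1.83, 1.41 to 2.26) and 2.44-fold after 24 hr (1.29, 0.83 to 1.74) against genes of like GC content. At 6 hr the GC-matched ratio was -0.01 (-0.64 to 0.61).

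Cish, an inhibitor of STAT5 signalling and the first member of the SOCS family to be known, had 51.0 deposited units in untreated MEFs, 108 after 1.5 hr, 42.3 after 6 hr and 64.0 after 24 hr. As in Socs1, the highest value was after 1.5 hr. Its relative log2 ratio was 0.64 after 1.5 hr (interval 0.37 to 0.92), 0.47 after 6 hr (0.12 to 0.82) and 0.23 after 24 hr (-0.07 to 0.52). The GC-matched ratios were 1.12, 0.71 and 0.63, and after 6 hr the ratio as deposited was -0.27. Socs1 and Cish, whose promoter letters are shown above, are known targets of STAT proteins, and no binding was measured here.

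Socs2, which curbs the growth hormone receptor, had 177 deposited units in untreated MEFs, 150 after 1.5 hr, 101 after 6 hr and 108 after 24 hr. All 3 treated libraries were below the untreated one. Relative to all coding genes it was 1.60-fold lower after 1.5 hr (log2 -0.68, interval -0.83 to -0.54) and 1.76-fold lower after 24 hr (-0.81, -0.97 to -0.66), with -0.07 after 6 hr. The bin of its GC content had a median of 0.75 after 1.5 hr and 0.66 after 24 hr, and against it Socs2 was 2.69-fold lower after 1.5 hr (log2 -1.43) and 2.78-fold lower after 24 hr (-1.48). All 4 Socs2 transcripts of the table had relative ratios between -0.67 and -0.68 after 1.5 hr.

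Socs3, the feedback inhibitor of IL-6 family signalling, had 123 deposited units in untreated MEFs, 89.2 after 1.5 hr, 44.8 after 6 hr and 98.0 after 24 hr. The untreated library was the highest and that after 6 hr the lowest. Its relative log2 ratio was -0.90 after 1.5 hr (interval -1.14 to -0.66), -0.71 after 6 hr (-1.03 to -0.40) and -0.43 after 24 hr (-0.65 to -0.20). Against genes of like GC content the ratio was -0.14 after 1.5 hr (-0.37 to 0.10), -0.49 after 6 hr (-0.80 to -0.17) and 0.32 after 24 hr (0.10 to 0.55), so the direction after 24 hr depends on the comparison genes.

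**Figure D3:**
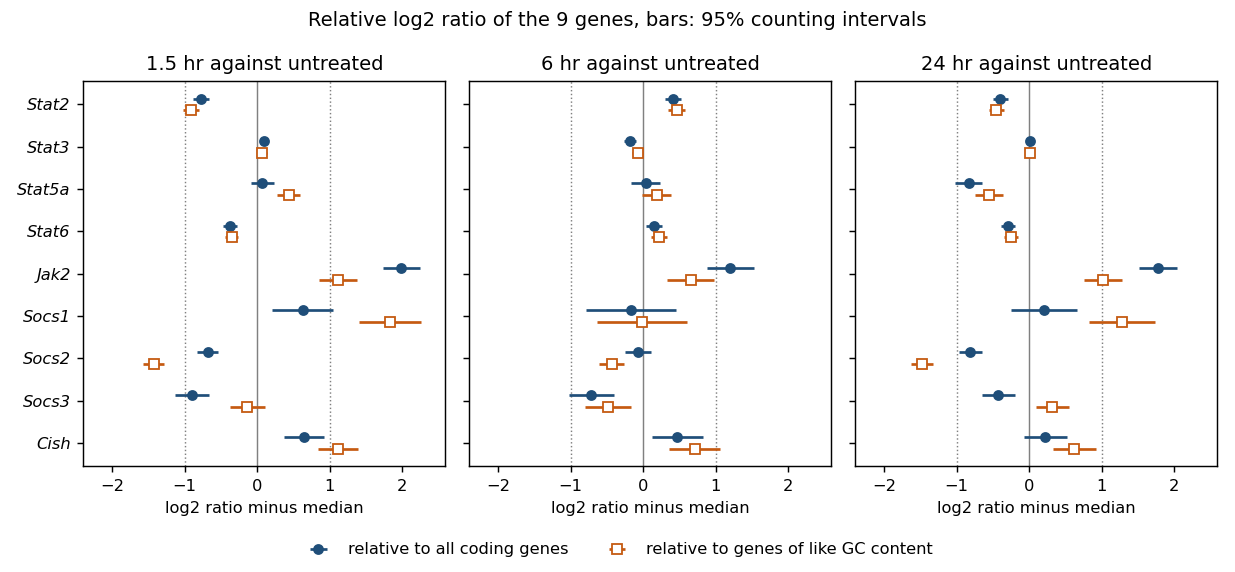
Log2 ratio to the untreated library minus the median of the comparison genes (x axis) for the 9 genes at 1.5, 6 and 24 hr. Filled circles are relative to all coding genes and open squares to genes of like GC content, bars are 95% counting intervals and dotted lines mark 2-fold. At 1.5 hr the square of Socs1 lies at 1.83 and that of Socs2 at -1.43, both further from 0 than their circles, while the square of Jak2 at 1.12 lies nearer to 0 than its circle at 1.99.

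Few of the 9 genes passed 2-fold, and the count depends on the filter. With a mean above 100 deposited units, 5 of the 9 genes (Stat2, Stat3, Stat5a, Stat6 and Socs2) could be counted, and 0 of them were at least 2-fold higher or lower at any time. Among all coding genes past this filter, 15.8% were higher and 17.4% lower after 1.5 hr, 7.21% and 3.26% after 6 hr, and 14.4% and 15.2% after 24 hr. A mean above 50, chosen after the values were seen, let all 9 genes pass, Jak2 through its levels at 1.5 and 24 hr. With it 1 gene, Jak2, was higher at each time and 0 were lower, against 15.2% of coding genes higher and 17.8% lower after 1.5 hr, 6.99% and 3.58% after 6 hr, and 13.5% and 15.2% after 24 hr.

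The same filter with GC-matched ratios gave 3 genes higher (Jak2, Socs1 and Cish) and 1 lower (Socs2) after 1.5 hr, where 10.4% of coding genes were higher and 10.7% lower. At 24 hr 2 genes were higher (Jak2 and Socs1) and 1 lower (Socs2), where 10.1% of coding genes were higher and 8.91% lower. At 6 hr 0 genes passed in either direction, beside 4.95% higher and 2.95% lower among coding genes. With 9 genes, 1 gene is 11.1% of the group, so a count of 1 is near these background shares.

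The other family members were read beside the 9 genes. Stat5b had relative ratios of -0.08, -0.40 and -0.46 and GC-matched ratios of -0.10, -0.29 and -0.47. Stat4, a lymphocyte STAT, was at or under 0.54 deposited units in every library.

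Among the other JAK kinases, Jak1 had relative log2 ratios of 0.71, 0.54 and 0.27 at 1.5, 6 and 24 hr and GC-matched ratios of 0.19, 0.36 and -0.18. Tyk2 had relative ratios of -0.41, 0.29 and -0.76 and GC-matched ratios of 0.19, 0.44 and -0.21, so its side of 0 after 1.5 hr depends on the comparison genes. Jak3 was the one past 2-fold, at 317 deposited units in untreated MEFs, 79.0 after 1.5 hr, 160 after 6 hr and 73.5 after 24 hr. Its relative ratios were -2.45, -0.25 and -2.21 and its GC-matched ratios -1.59, -0.18 and -1.46. An exon of Jak3 shares 404 bases with Insl3 on the same strand, so reads of these genes could be mixed and its value is uncertain.

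The SOCS genes outside the group were all below the filter. Socs5 had relative ratios of 0.84, -0.42 and 0.20, Socs6 of 0.52, 0.07 and 0.21, and Socs7 of -0.35, 0.23 and -0.25. The GC-matched ratios were 0.32, -0.60 and -0.25 in Socs5, -0.46, -0.60 and -0.70 in Socs6, and -0.27, 0.36 and -0.10 in Socs7, so Socs6 changed side at every time and Socs5 after 24 hr. Socs4, at 9.09 deposited units in untreated MEFs, had 1.32, 0.45 and 1.19, and its GC-matched ratios were 0.34, -0.22 and 0.28. Of the PIAS genes, whose proteins bind STATs in the nucleus, Pias3 was past 2-fold after 1.5 hr, with -1.14 relative to all coding genes and -0.72 against genes of like GC content. Pias2 had relative ratios of 0.83 after 1.5 hr and after 24 hr, with GC-matched ratios of -0.15 and -0.07. Pias4 had -0.66 and -0.07 relative to all coding genes, but 0.54 and 1.01 against genes of like GC content. Pias1, below the filter, had 0.07 and 0.52, and -0.80 and -0.23 when GC-matched.

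A list of 120 other genes of the pathway was drawn up by role, of which 119 were in the table and 50 passed the filter at a mean above 100. Of these 50, 17 passed 2-fold upward and 12 downward after 1.5 hr, 12 higher and 1 lower after 6 hr, and 19 higher and 9 lower after 24 hr. These are 34.0% and 24.0% after 1.5 hr, 24.0% and 2.0% after 6 hr, and 38.0% and 18.0% after 24 hr, where the shares of all coding genes were 15.8% and 17.4%, 7.21% and 3.26%, and 14.4% and 15.2%. Of the higher genes, 8, 4 and 8 had an untreated level of at most 100 and so passed the filter through the treated libraries, which favours higher calls. The median relative log2 ratio of the list was 0.41, 0.30 and 0.35, where that of all coding genes is 0 by construction. With GC-matched ratios the counts were 14 higher and 6 lower after 1.5 hr, 10 and 2 after 6 hr, and 15 and 7 after 24 hr. With these ratios 10.8% of coding genes were higher and 10.4% lower after 1.5 hr, 4.96% and 2.7% after 6 hr, and 10.5% and 9.0% after 24 hr.

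By role, receptors had the most higher calls after 1.5 hr, and targets had the most after 6 and 24 hr. Of 15 receptor genes past the filter, 8 were higher and 4 lower after 1.5 hr, 3 higher and 1 lower after 6 hr, and 7 higher and 3 lower after 24 hr, with the same background shares of 15.8% and 17.4%, 7.21% and 3.26%, and 14.4% and 15.2%. These counts are not GC-matched. As in the whole list, some higher genes, such as Il2rg, passed the filter through the treated libraries, which favours higher calls. Il2rg, the shared chain of several interleukin receptors, was at 76.0 deposited units in untreated MEFs and 505 after 24 hr, a relative log2 ratio of 2.63 with 2.14 against genes of like GC content. Il3ra had relative ratios of -2.67 after 1.5 hr and -2.66 after 24 hr and GC-matched ratios of -1.46 and -1.58. Il11ra1 had -1.44 and -1.48 relative to all coding genes, but -0.67 and -0.73 against genes of like GC content. Il4ra, the receptor chain upstream of STAT6, had -1.20 relative to all coding genes and -1.05 against genes of like GC content after 6 hr.

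Of 19 genes listed as targets, 7 were higher after 1.5 hr, 8 after 6 hr and 10 after 24 hr, and 2, 0 and 2 were lower, beside background shares of 15.8%, 7.21% and 14.4% higher and 17.4%, 3.26% and 15.2% lower. The counts of targets are not GC-matched either, and Gbp2 is among those that passed the filter through the treated libraries. Gbp2, a GTPase induced by interferon, was at 16.6 deposited units in untreated MEFs and 466, 161 and 296 after TNFα, with relative ratios of 4.37, 4.02 and 4.05 and GC-matched ratios of 3.80, 3.81 and 3.53. Ifit1, another interferon-induced gene, was highest after 6 hr, at 2283 deposited units against 165 in untreated MEFs (relative log2 4.53, GC-matched 3.98). Bcl6, a transcriptional repressor, was at -0.94 after 6 hr (GC-matched -0.89). Of the 2 ligands past the filter, Lif, a cytokine of the IL-6 family that signals through STAT3, was at 35.3 deposited units in untreated MEFs and 440 after 1.5 hr (relative log2 3.20, GC-matched 3.22). The other ligand, Clcf1, named after its values were seen, had relative ratios of -1.26 after 1.5 hr and -1.24 after 24 hr and GC-matched ratios of -0.85 and -0.83.

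**Figure D4:**
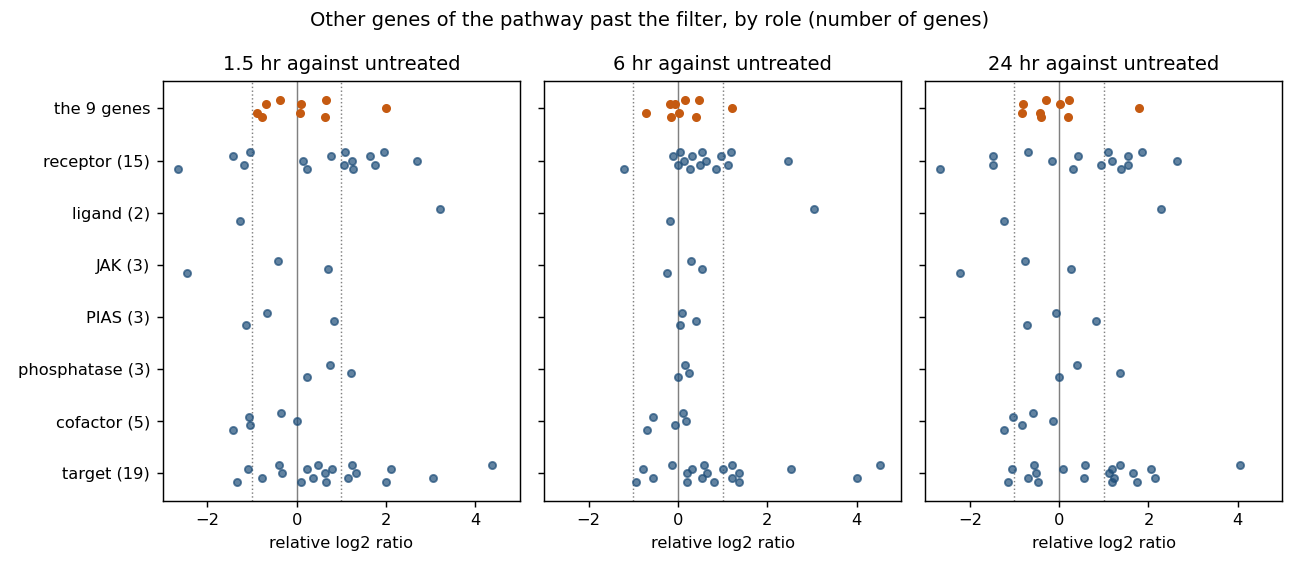
Relative log2 ratio (x axis) at 1.5, 6 and 24 hr of the 9 genes (orange) and of the other pathway genes past the filter (blue) by role, with the number of genes in parentheses and dotted lines at 2-fold. Gbp2, Ifit1 and Lif lie furthest to the right at 4.37, 4.53 and 3.20, and 8 of the 9 genes lie between the dotted lines at each time, with Jak2 to the right of them.

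The coding genes past the filter whose 3 relative ratios lay nearest to those of Jak2 were Fh1, Ifngr2 and Cdk1, at Euclidean distances of 0.06, 0.07 and 0.10 on the log2 scale over 3 ratios. Ifngr2, a chain of the interferon-γ receptor, had 1.96, 1.19 and 1.85. A further look at the same measure found 117 genes within 0.5 of Jak2. Nearest to Socs3 were Scnm1, Zfp462 and Pin4, at 0.07, 0.14 and 0.14, and 322 genes lay within 0.5. All these ratios share the untreated library and rest on 3 numbers per gene. They are not GC-matched, and the GC bin of Jak2 alone had medians of 0.87, 0.55 and 0.76. Jak2 and Socs3 were themselves below the filter, at means of 77.2 and 88.7. Fh1 and Cdk1, at 91.4 and 35.5 deposited units in untreated MEFs, passed it through the treated libraries. Whether these genes are regulated together was not tested.

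Markers of fibroblasts were abundant, with 9 of 10 past the filter and a summed level of 91163, 90414, 43523 and 55126 deposited units at 0, 1.5, 6 and 24 hr. Of 8 macrophage and leukocyte markers 4 passed the filter, and their sum was 3354, 16510, 3222 and 8120, so with Lyz2 it was high at 1.5 and 24 hr, the times at which Jak2 and Socs1 were highest. Most of the sum was Lyz2, at 2257, 14668, 2692 and 7187, and without it the sum was 1097, 1843, 530 and 933, above the untreated library after 1.5 hr only. Ptprc, the defining leukocyte marker, was at 13.4, 30.8, 8.63 and 16.6, and Csf1r, the macrophage growth factor receptor, at 295, 287, 90.1 and 124. Cd14 was at 62.6, 515, 178 and 387, so Lyz2 was not alone in being higher at 1.5 and 24 hr. Cd68 (605, 823, 202 and 312) and Fcgr1 (53.9, 48.7, 17.1 and 14.4) were, like Csf1r, below the untreated library after 24 hr. The lymphocyte markers Cd3e and Ncr1 were at 0 in all libraries, as was the epithelial marker Epcam, and the lymphocyte and endothelial sums were at most 15.1 and 6.93. The part of other cell types in the ratios was not tested, and in bulk RNA fewer cells of a type and less RNA per cell cannot be told apart.

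All 9 genes carried H3K4me3 at their start in untreated MEFs, before any TNFα. A peak covered the start site itself in 9 of 9 genes, with starts from RefSeq for 8 of them and from GENCODE for Socs2. Of all 19724 coding genes with an annotated start, 54.2% had a peak within 1 kb of any of their starts, and 92.4% of those past the filter did, so most genes past it had one. Jak2, Socs1 and Cish were between 25 and 55 deposited units in untreated MEFs, and 79.3% of coding genes in that range had a peak.

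The peaks differed in strength and width. Stat2 had the highest fold enrichment over input, 106, above 95.9% of all 11157 peaks, followed by Stat3 at 81.1, Jak2 at 74.9 and Socs3 at 51.3. Socs1 at 35.9, Cish at 33.1, Stat5a at 23.8, Stat6 at 22.8 and Socs2 at 22.0 were lower, and the lowest value in the peak list is 20. Thus Jak2, the gene of the group with the lowest RNA level in untreated MEFs, had the third highest enrichment. At a fold enrichment of at least 40, 4 of the 9 genes had a peak, against 35.1% of all coding genes and 64.7% of those past the filter.

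Socs3 had the widest peak, 8510 bases with 2483 tags (chr11:117823267-117831776 in mm9), wider than 98.4% of all peaks, and it reached from 1096 bases before the start to 7413 bases after it. The narrowest was that of Cish, at 3157 bases with 821 tags, near the median of all peaks at 3187 bases and 1049 tags. The summit lay between 266 and 982 bases after the start in 7 genes. The 982 bases belong to Stat5a and run from its first RefSeq start. A further RefSeq start of Stat5a, at chr11:100721798 in mm9, lies nearer to the summit. It lay 646 bases before the start in Jak2 and 2493 bases after the GENCODE start in Socs2. With 1 ChIP library these values have no replicate error.

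**Figure D5:**
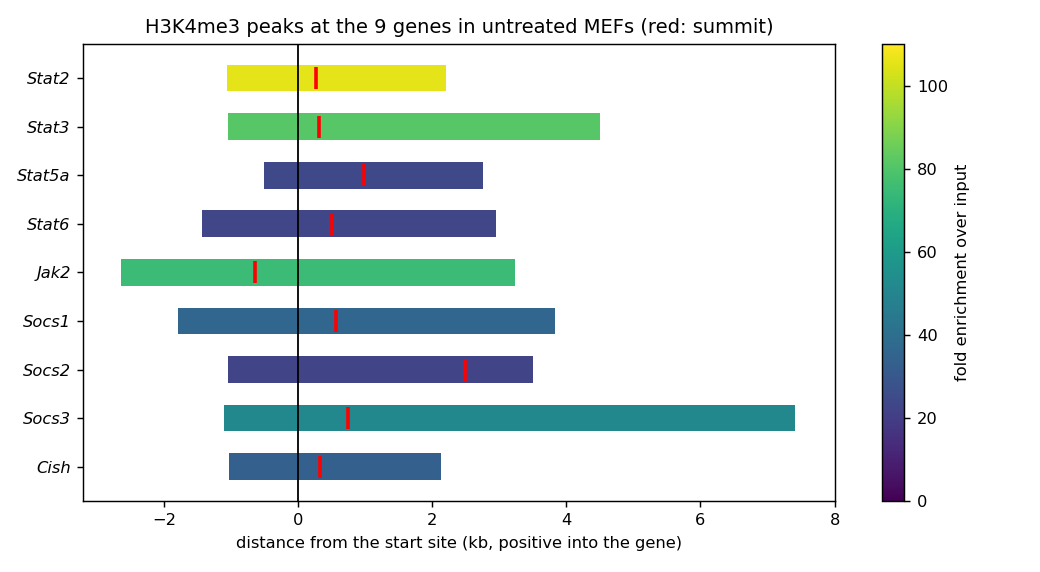
H3K4me3 peaks at the 9 genes in untreated MEFs as distance from the start site in kb (x axis, positive in the direction of transcription). Bars span each peak, their colour is the fold enrichment over input and red marks are the summits. Every bar crosses the start, and that of Stat2 has the highest enrichment (106). The bar of Socs3 extends furthest after the start (7413 bases), beyond the end of the gene.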

How the data were processed

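RNA-seq was available for 4 libraries of WT MEFs (untreated and 1.5, 6 and 24 hr of TNFα, 1 library each), and H3K4me3 ChIP-seq for 1 library with 1 input. One label field of the library at 24 hr describes ChIP, while title, treatment and source are those of RNA. The paper's list of libraries ties the column names to the times. The authors mapped RNA reads to mm9 with TopHat and deposited RPKM values per RefSeq transcript from an in-house script, as 2 columns (R1 and R2) per library. For ChIP the authors used Bowtie and then MACS, and the deposited peak list holds tag counts, a score from the p of each peak, a fold enrichment ratio over input and a false discovery rate in percent.

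Here the mean of R1 and R2 was used, with the transcript of the highest mean per gene. Log2 ratios to the untreated library were centred on the median of the coding genes with a mean of the 8 columns above 100, and 2-fold was the threshold. The 9 genes, the pathway list and the marker lists were chosen with earlier results of these data known. Beside the 9 genes, the text names the other JAK, STAT, SOCS and PIAS genes (1 of them is not reported here), the 2 largest rises and 2 largest falls of the rest of the list at each time, and the 3 genes nearest in ratios to Jak2 (the largest ratio of the 9) and to Socs3 (the largest fall). Genes named from other counts, such as Insl3 and Nab2 for their overlaps or Lyz2, Ptprc and Cd14 among the markers, were picked after their values were seen.

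Reads per gene were estimated because value times transcript length fell on multiples of a step. About 59.5% to 62.3% of low values lay within 0.1 of a whole read, so these reads are approximate. Lengths and GC content (found for 98.0% of genes past the filter) came from the longest GENCODE coding transcript in mm9, and promoters from RefSeq. For the share of coding genes with a peak, any annotated GENCODE start of a gene was used. The start sites of the STAT and SOCS signalling genes came from RefSeq, except that of Socs2, which came from GENCODE. Intervals are 95% Poisson intervals on the ratio. The steps were tested on simulated data with Python 3.11.15, numpy and pandas. The simulated libraries held a uniform shift and some changed genes but no GC trend, and R1 and R2 were drawn independently. The simulation therefore could not show how the centring does under a GC trend. Alternatives were other scalings, centring within 20 GC bins, pseudocounts of 10 and 100, each column alone, the mean of all transcripts, other folds and filters, other peak distances and strengths, and stricter STAT letters. The filter at a mean above 50, alone and with GC bins, was chosen after seeing the data.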

Additional observations from a re-analysis of the deposited data

Results flagged for a closer look

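Stat2 was above the median gene at 6 hr (relative log2 ratio 0.41) and below it at 1.5 hr, and the same value of 0.41 at 6 hr stood against a value below 0 at 24 hr. Stat3 was above it at 1.5 hr (0.0918) and below it at 6 hr. Stat6 was above it at 6 hr (0.15) and below it at 1.5 hr, and this 0.15 likewise stood against a value below 0 at 24 hr. They were picked out because the sign differed between times, and in each pair both counting intervals excluded 0. The signs of Socs1 and Stat5a differed between times too. There the intervals of Socs1 at 6 hr and of Stat5a at 1.5 and 6 hr included 0. With 1 library per time these differences were not tested, and the signs of Stat2 and Stat6 at 6 hr turn below 0, and that of Stat6 at 1.5 hr above 0, with the values as deposited.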

How the results depend on the processing

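Of 270 values of single genes under the alternatives, 206 moved by less than the half-width of their 95% counting interval and 64 by more. On 10 occasions the sign differed from that relative to all coding genes. As deposited, Stat6 was 0.07 after 1.5 hr and -0.59 after 6 hr, and Stat2, Stat5a and Cish were -0.33, -0.71 and -0.27 after 6 hr. Scaled to the sum, Socs2 was 0.02 after 6 hr, and with GC bins Socs3 was 0.32 after 24 hr. A pseudocount of 100 turned Stat5a after 1.5 hr (-0.01) and Socs1 (0.23) and Socs2 (0.01) after 6 hr. The R1 column alone, the R2 column alone and the mean of all transcripts moved none by more than that half-width. With 2-fold and a mean above 100, 0 of the 9 genes were called. At 1.5-fold, 2 were lower at 1.5 hr and 2 at 24 hr. With no filter, as with a mean above 50, 1 was higher at each of the 3 times. GC bins made 1 lower at 1.5 and 24 hr, and with a mean above 50 they made 3 higher and 1 lower at 1.5 hr and 2 higher and 1 lower at 24 hr.

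For the pathway list (17 higher and 12 lower at 1.5 hr, 12 and 1 at 6 hr, 19 and 9 at 24 hr), 1.5-fold gave 4 lower at 6 hr and 15 lower at 24 hr. A 3-fold threshold gave 9 and 2, 5 and 0, and 8 and 2. No filter gave 33 and 22, 29 and 13, and 36 and 20, and a mean above 200 gave 5 lower at 1.5 hr and 4 at 24 hr. With a pseudocount of 100 there were 10 and 4 at 1.5 hr, 5 higher at 6 hr, and 8 and 4 at 24 hr. As deposited there were 2 lower at 1.5 hr and 5 higher and 6 lower at 6 hr, and scaled to the sum 6 were lower at 1.5 hr. GC bins gave 6 lower at 1.5 hr and 2 at 6 hr with either filter.

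For coding genes, 1.5-fold gave 28.7% higher and 29.6% lower at 1.5 hr, 17.4% and 14.2% at 6 hr, and 27.6% and 27.6% at 24 hr. At 3-fold these were 4.68% and 5.77%, 2.28% and 0.248%, and 4.05% and 4.83%. A pseudocount of 100 gave 7.40% and 9.93% at 1.5 hr, 2.21% higher at 6 hr, and 6.13% and 8.45% at 24 hr. As deposited they were 29.8% and 7.97% at 1.5 hr and 1.83% and 31.5% at 6 hr. No filter gave 12.1% and 15.5% at 6 hr. GC bins gave 10.4% lower at 1.5 hr and 9.0% lower at 24 hr, and with a mean above 50 they gave 10.4% higher and 10.7% lower at 1.5 hr and 8.91% lower at 24 hr. A fold enrichment of at least 40 left 4 genes with a peak (35.1% of coding genes), and the stricter STAT letters left 1 gene in place of 2. Except where fewer genes were tested, the cause was not tested.

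No paired analysis was possible because there was 1 library per time, with no replicate to leave out. Depth limits Socs1 most, whose 30.1 estimated reads at 6 hr give the widest interval.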
